A study of Homo sapiens with 11 samples.

Results

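Autophagy delivers cytoplasmic cargo to the lysosome, and the genes described here are 41 genes of that route in 2 human cancer cell lines given 4 drugs. They were chosen by symbol from a list of the autophagosome machinery, its cargo receptors, the MiT/TFE transcription factors and the lysosome. All 41 were found among 23228 genes in the count tables, and all 41 passed the filter on low counts, which left 15888 genes to test. U2OS is an osteosarcoma line and MDA-MB231 a basal breast cancer line. Each line was treated for 8 h with doxorubicin (1 µM), etoposide (20 µM), MMS (40 µg/mL) or paclitaxel (0.2 µM), with 1 RNA-seq library per line and drug. DMSO was the control, with 1 library in U2OS and 2 in MDA-MB231. Of these, MDA-MB231 DMSO replicate 1 shares its title form with the libraries of doxorubicin, etoposide and paclitaxel, and replicate 2 shares its form with the MMS library. Replicate 2 is described as having had no treatment, although its treatment label is DMSO. MMS (methyl methanesulfonate) is an alkylating agent that adds methyl groups to DNA. Etoposide and the intercalator doxorubicin trap topoisomerase II on DNA, and paclitaxel keeps microtubules from disassembling.

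An autophagosome starts when the ULK kinase complex and a PI3-kinase complex mark a patch of membrane. A conjugation machinery built from ATG proteins then attaches the small ATG8 proteins (the LC3 and GABARAP families) to the growing membrane, where cargo receptors such as SQSTM1 bind them. The closed vesicle fuses with a lysosome, which is acidified by the V-ATPase and filled with hydrolases. TFEB, TFE3 and MITF are related transcription factors that bind a short promoter sequence common among lysosome genes, and they are held in the cytoplasm by phosphorylation when nutrients are plentiful.

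The libraries held 16774156 to 31588683 counts assigned to genes, and the members took up 0.431% to 1.05% of them. In every library 37 of the 41 members had at least 100 reads. ULK2, ATG10, MAP1LC3A and TFEB fell under that in at least 1 library, and the lowest count was 12 reads, for MAP1LC3A. A drug response is the mean change over both lines, tested with edgeR's quasi-likelihood test and a call being an adjusted p (Benjamini-Hochberg) under 0.05. It is given as a log2 fold change ± SE, drug over DMSO, with n = 2 libraries per drug, so the lines are the replicates and a value of 1 is a 2-fold rise. Nothing in the labels says whether libraries came from separate cultures, and the spread behind the p-values is how far the lines differ in their responses. Levels are CPM, read counts scaled to library size, and a ratio within 1 line compares 2 libraries with no replicate check. The lines could be told apart by their markers: SPARC, a bone matrix gene, ranged over 596 to 1958 CPM in U2OS and 0.161 to 2.34 CPM in MDA-MB231, and the epithelial keratin gene KRT19 over 0.027 to 0.344 CPM in U2OS and 65.3 to 182 CPM in MDA-MB231. Other markers went against the labels, as KRT81 was higher in U2OS and CDH11 in MDA-MB231. Blood and immune markers summed to 0.688 to 4.49 CPM in U2OS drug libraries and 1.65 to 14.6 CPM in MDA-MB231 drug libraries, against 0.41 CPM in U2OS DMSO and 3.13 to 7.55 CPM in MDA-MB231 DMSO. Endothelial markers summed to 0.774 to 1.66 CPM in U2OS drug libraries and 1.45 to 13.6 CPM in MDA-MB231 drug libraries, against 0.973 CPM in U2OS DMSO and 4.63 to 6.30 CPM in MDA-MB231 DMSO. Of the 3 blood and immune markers tested, ITGAM was called higher with doxorubicin and etoposide. ITGAM stood at 1.81 CPM in U2OS and 2.76 CPM in MDA-MB231 with doxorubicin and 1.65 and 0.515 CPM with etoposide, against 0.051 CPM in U2OS DMSO and 0 and 0.063 CPM in the MDA-MB231 DMSO replicates. No endothelial marker passed with any drug. Of 5 MDA-MB231 markers 4 fell with etoposide (VIM, KRT7, KRT19 and KRT81) and 3 with MMS (VIM, CD44 and KRT7), while with doxorubicin CD44 rose and KRT19 fell. Of 5 U2OS markers RUNX2 and CDH11 fell with etoposide and with MMS, and SPARC rose with doxorubicin. The part of these markers in the members' changes was not tested. In bulk libraries a change in which cells remain and a change in RNA per cell cannot be told apart.

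Doxorubicin changed 25 of the 41 members, of which 20 rose and 5 fell. It was also the drug with the widest response, since 21.9% of all genes tested rose and 20.6% fell (42.5% in either direction). All 12 lysosome members rose, while 4 of the 6 conjugation genes fell. The members' median log2 fold change was 0.55, beside 0.07 over all genes tested. Etoposide changed 12 members, which all rose, against 7.97% of all genes that rose and 9.23% that fell (17.2% in either direction). The members' median was 0.37, beside 0.02 over all genes. MMS changed 8 members, of which 7 rose and 1 fell, where 5.23% of all genes rose and 5.16% fell (10.4% in either direction). Their median was 0.06, beside -0.04 over all genes. Paclitaxel changed none of the members and 0 of the 15888 genes in edgeR (0% called), and DESeq2 also called 0. With only the libraries compared, edgeR called 0 members and 0.202% of 14863 genes for paclitaxel. At an unadjusted p under 0.05 edgeR had 110 genes and 0 members for paclitaxel. The ratios within a line ran from -0.33 (ATG2B) to 0.25 (MCOLN1) in U2OS with paclitaxel, and from -0.37 (MITF) to 0.58 (ULK1) in MDA-MB231. Every member called for doxorubicin, etoposide or MMS had a ratio of the same sign in both lines, with counting intervals that excluded 0 in both. The calls and these signs come from the same libraries, and the test itself weighs how far the lines differ. The signs are thus no independent check of the calls. Against the other MDA-MB231 DMSO library 1 of these signs turned, that of CTSL1 with MMS.

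**Figure D1:**
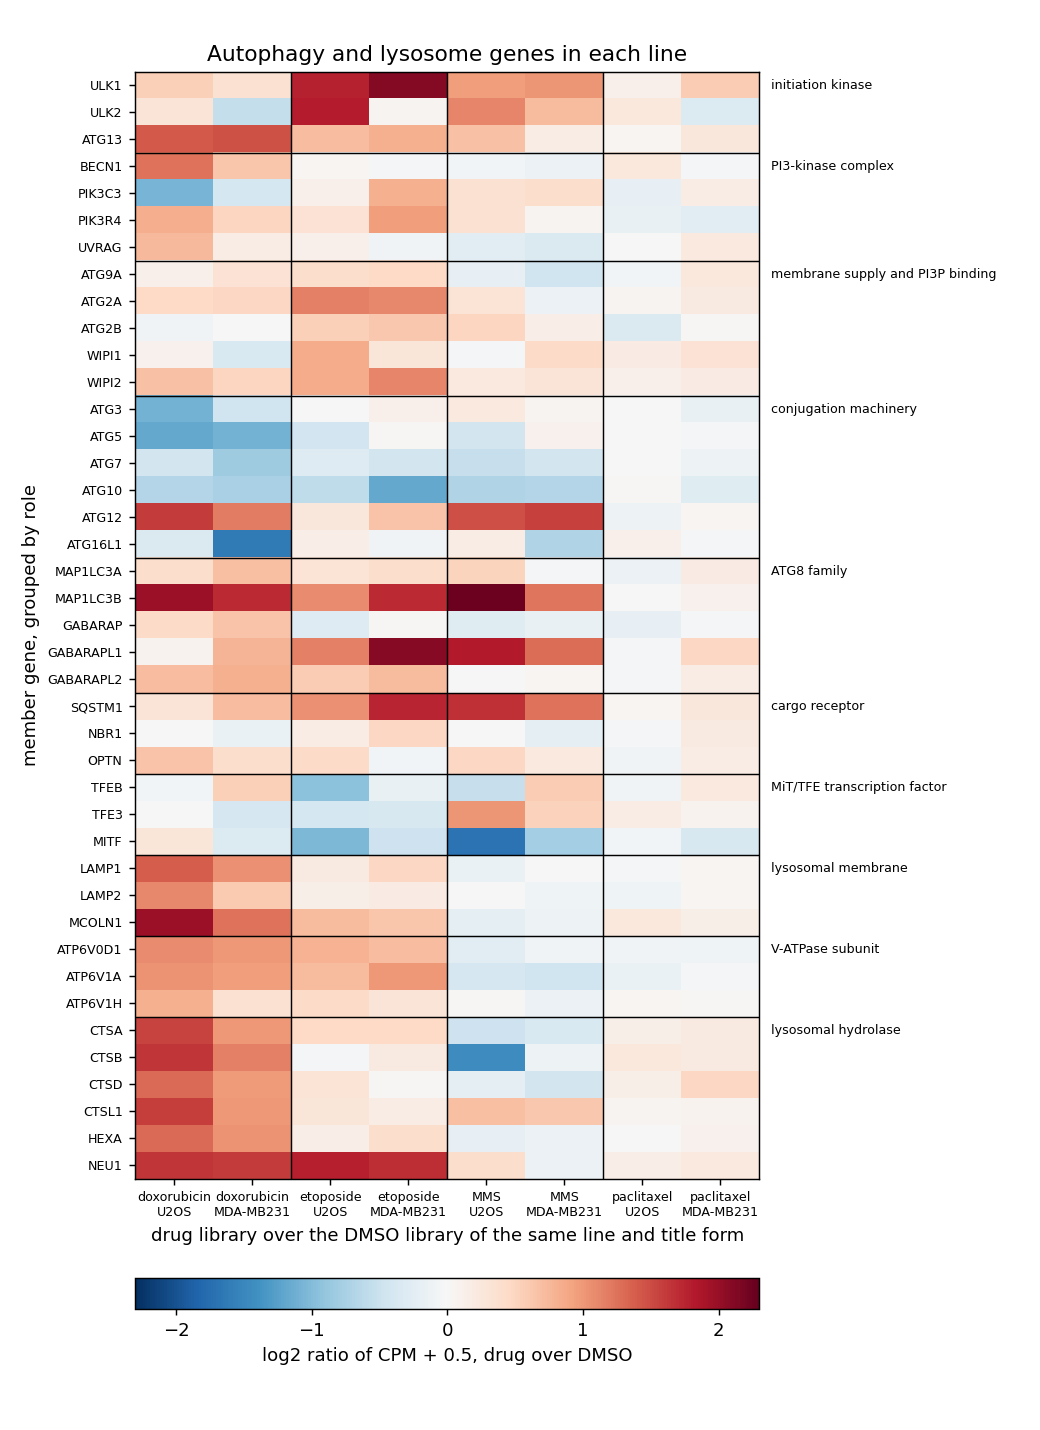
Heat map of the log2 ratio of CPM + 0.5, drug over the DMSO library of the same line and title form, for the 41 members (rows, grouped by role) in 8 drug and line pairs (columns). The 12 lysosome genes at the bottom are red in both doxorubicin columns, and no row exceeds 0.58 in either direction in the paclitaxel columns.

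These counts rest on few libraries. Without MDA-MB231 DMSO replicate 1 the etoposide count was 2 (ULK1 and NEU1), without the MDA-MB231 etoposide library 4 and without the U2OS DMSO library 5. The MMS count was 0 without the U2OS MMS library, and 4 without the U2OS DMSO library or without MDA-MB231 DMSO replicate 1. The doxorubicin count stayed between 19 and 27 whichever library was left out. No share of all genes is given beside these counts. A loss of calls over all genes and one among the members thus cannot be told apart here. Scaling to total counts in place of TMM moved the doxorubicin split to 17 higher and 7 lower and the etoposide split to 18 higher and 0 lower. It moved the median of all genes to -0.15 with doxorubicin and 0.15 with etoposide. Over all genes it gave 2453 higher and 4064 lower with doxorubicin in place of 3476 and 3272, and 1855 higher and 1030 lower with etoposide in place of 1267 and 1467. Within MDA-MB231, members at 2-fold or more were 11 of 40 with doxorubicin (27% of all genes with at least 5 CPM in either library), 7 of 40 with etoposide (19.8%), 5 of 37 with MMS (6.11%) and 0 of 39 with paclitaxel (0.471%). Against the other DMSO library they were 17 of 39 (32.9% of all such genes), 9 of 39 (23.3%), 3 of 39 (8.78%) and 3 of 39 (3.65%) in the same order of drugs. With both directions pooled, the doxorubicin and etoposide counts over the DMSO library of the same title form thus lay near the shares of all genes. By direction, 9 members rose and 2 fell with doxorubicin (8.19% and 18.8% of all such genes). With etoposide 7 rose and 0 fell (8.62% and 11.1%). In U2OS 15 of 39 rose and 3 fell with doxorubicin (14.3% and 18.3%). There 7 of 40 rose and 1 fell with etoposide (6.11% and 7.5%), and 6 of 40 rose and 2 fell with MMS (7.32% and 11.2%).

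**Figure D2:**
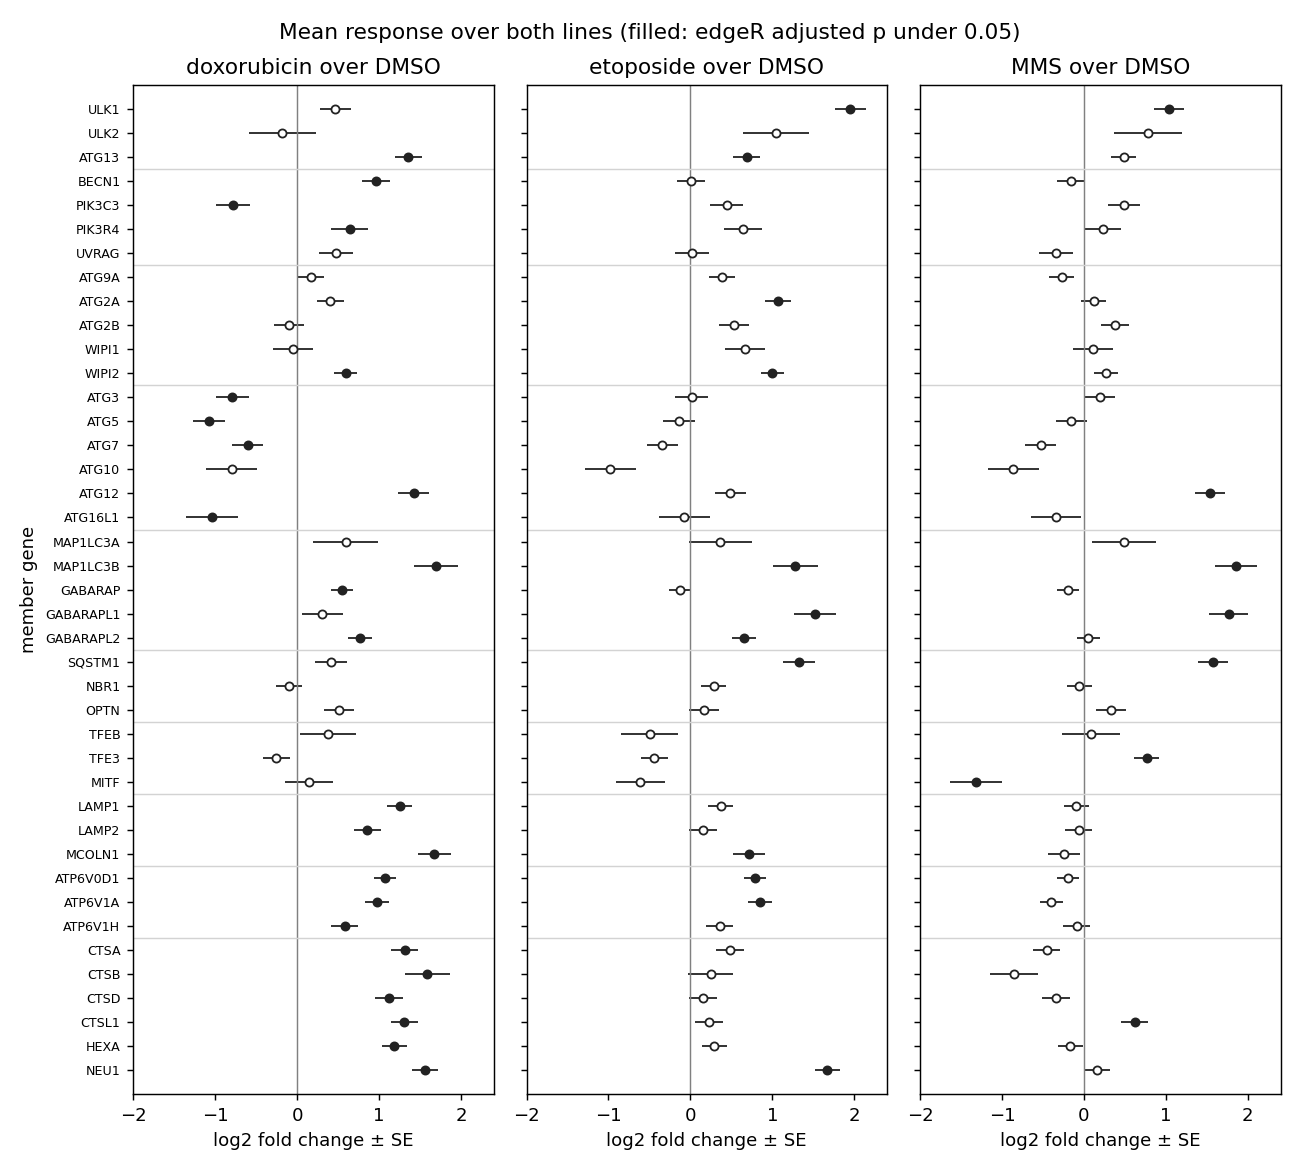
Mean log2 fold change over both lines (x axis, points, with bars of 1 SE) of each member (rows) after doxorubicin, etoposide and MMS. Filled points passed an edgeR adjusted p under 0.05, which 25, 12 and 8 members did.

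Among the genes that start an autophagosome, the kinase gene ULK1 rose after etoposide and MMS. ULK1 stood at 136 CPM in U2OS and 121 CPM in MDA-MB231 with etoposide, at 77.7 and 36.7 CPM with MMS, at 58.4 and 35.3 CPM with doxorubicin and at 42.7 and 41.4 CPM with paclitaxel, against 39.6 CPM in U2OS DMSO and 27.6 and 18.0 CPM in the MDA-MB231 DMSO replicates. The etoposide libraries were the highest of each line. In MDA-MB231 the MMS library lay above both DMSO libraries but below the paclitaxel library. Its log2 fold change was 1.95 ± 0.19 with etoposide (edgeR adjusted p = 0.00323), 1.04 ± 0.19 with MMS (edgeR adjusted p = 0.015) and 0.47 ± 0.19 with doxorubicin (edgeR adjusted p = 0.0781). The MMS call of ULK1 was lost without MDA-MB231 DMSO replicate 1, without the MDA-MB231 MMS library, without the U2OS DMSO library and without the U2OS MMS library. ATG13, a partner of the kinase, rose by 1.36 ± 0.16 with doxorubicin and 0.68 ± 0.16 with etoposide, and stood at 0.49 ± 0.15 with MMS without passing the test (edgeR adjusted p = 0.0762). The related kinase gene ULK2 passed in no drug.

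The PI3-kinase complex makes the lipid that marks the growing membrane, and its members split after doxorubicin. PIK3C3, the catalytic subunit, fell by 0.78 ± 0.21 on the log2 scale (edgeR adjusted p = 0.0156), while BECN1 rose by 0.96 ± 0.17 and the regulatory subunit PIK3R4 by 0.64 ± 0.23. The PIK3R4 call was lost in 13 of 19 alternative settings. UVRAG, a BECN1 partner, was at 0.48 ± 0.21 (edgeR adjusted p = 0.0935). PIK3C3 had 15.6 CPM in U2OS and 41.8 CPM in MDA-MB231 with doxorubicin, 36.3 and 97.4 CPM with etoposide, 42.8 and 70.2 CPM with MMS and 29.1 and 62.1 CPM with paclitaxel, against 33.3 CPM in U2OS DMSO and 55.3 and 53.1 CPM in the MDA-MB231 DMSO replicates. Both doxorubicin libraries were the lowest of their line. No member of the complex passed with etoposide or MMS. Of the genes that supply membrane or bind the lipid, the lipid transfer gene ATG2A rose by 1.07 ± 0.16 with etoposide, and WIPI2, a lipid-binding recruiter of the conjugation machinery, by 1.00 ± 0.14 with etoposide and 0.59 ± 0.14 with doxorubicin, the second a call lost without MDA-MB231 DMSO replicate 1. ATG9A, ATG2B and WIPI1 passed in no drug, and no gene of this group passed with MMS.

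The conjugation machinery moved as a divided group. After doxorubicin 4 of its 6 genes fell, 1 rose and 1 was not called. With only the libraries compared, the doxorubicin calls of ATG16L1, ATG3, ATG7 and PIK3C3 were lost and that of ATG5 was kept. That setting called 16 members higher and 1 lower (31.6% of all genes). The same 4 calls were lost without the block for line and title form. ATG5, which joins ATG12 in the enzyme complex that lipidates ATG8 proteins, had 29.6 CPM in U2OS and 27.3 CPM in MDA-MB231 with doxorubicin, 49.3 and 59.5 CPM with etoposide, 49.8 and 62.4 CPM with MMS and 67.0 and 57.5 CPM with paclitaxel, against 67.2 CPM in U2OS DMSO and 58.3 and 58.1 CPM in the MDA-MB231 DMSO replicates. The doxorubicin library was the lowest in each line, and the ATG5 change was -1.08 ± 0.20 (edgeR adjusted p = 0.00272). ATG16L1, the scaffold that brings this complex to the membrane, had 32.2 CPM in U2OS and 11.8 CPM in MDA-MB231 with doxorubicin, 44.9 and 35.1 CPM with etoposide, 45.5 and 22.6 CPM with MMS and 43.8 and 36.4 CPM with paclitaxel, against 40.5 CPM in U2OS DMSO and 37.4 and 36.8 CPM in the MDA-MB231 DMSO replicates. Most of its fall lay in MDA-MB231, with a ratio of -0.33 (95% interval -0.48 to -0.18) in U2OS and -1.62 (-1.87 to -1.46) in MDA-MB231, and its mean was -1.04 ± 0.32 (edgeR adjusted p = 0.0279). That call of ATG16L1 was lost without MDA-MB231 DMSO replicate 1, without either MMS library and without the MDA-MB231 doxorubicin library.

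ATG3, the enzyme that hands ATG8 proteins to the lipid, had 36.0 CPM in U2OS and 52.4 CPM in MDA-MB231 with doxorubicin, 76.5 and 77.9 CPM with etoposide, 90.1 and 68.6 CPM with MMS and 76.4 and 63.7 CPM with paclitaxel, against 77.0 CPM in U2OS DMSO and 72.1 and 65.9 CPM in the MDA-MB231 DMSO replicates. It was lowest with doxorubicin in both lines, at -0.79 ± 0.20 (edgeR adjusted p = 0.0135), a call that was lost, as was that of PIK3C3, without the U2OS DMSO or the U2OS doxorubicin library. ATG7, the activating enzyme, fell by 0.60 ± 0.19 with doxorubicin (edgeR adjusted p = 0.0298), a call lost in 7 of 19 alternative settings. ATG10, the enzyme that hands over ATG12, was at -0.80 ± 0.31 with doxorubicin, -0.98 ± 0.31 with etoposide and -0.86 ± 0.31 with MMS, and passed in none. ATG12, the ubiquitin-like partner of ATG5, was the exception that rose. ATG12 had 193 CPM in U2OS and 116 CPM in MDA-MB231 with doxorubicin, 76.2 and 81.6 CPM with etoposide, 177 and 158 CPM with MMS and 58.1 and 53.5 CPM with paclitaxel, against 63.2 CPM in U2OS DMSO and 51.5 and 52.5 CPM in the MDA-MB231 DMSO replicates. Doxorubicin and MMS libraries lay above all others in both lines. ATG12 rose by 1.42 ± 0.19 with doxorubicin (edgeR adjusted p = 0.000743) and by 1.54 ± 0.19 with MMS (edgeR adjusted p = 0.0056), and stood at 0.49 ± 0.19 with etoposide (edgeR adjusted p = 0.109).

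Gene span was set beside these calls as a description. The 5 members that fell with doxorubicin had a median span of 133 kb in the RefSeq annotation (29.5 to 304 kb), the 20 that rose 19.9 kb (2.44 to 128 kb) and the 16 not called 37.2 kb (10.3 to 329 kb). The share of reads aligned to several places was 37.5% in U2OS and 34.4% in MDA-MB231 with doxorubicin, against 32.7% in U2OS DMSO and 30.0% in MDA-MB231 DMSO replicate 1. The part of either quantity in the doxorubicin calls was not tested.

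The ATG8 family gave the members with the highest MMS values. MAP1LC3B, which encodes the LC3B protein used as the standard mark of autophagosomes, had 309 CPM in U2OS and 207 CPM in MDA-MB231 with doxorubicin, 168 and 207 CPM with etoposide, 378 and 198 CPM with MMS and 78.4 and 67.6 CPM with paclitaxel, against 78.3 CPM in U2OS DMSO and 62.9 and 83.8 CPM in the MDA-MB231 DMSO replicates. Every doxorubicin, etoposide and MMS library lay above all paclitaxel and DMSO libraries. MAP1LC3B rose by 1.69 ± 0.27 with doxorubicin (edgeR adjusted p = 0.00158), 1.28 ± 0.27 with etoposide (edgeR adjusted p = 0.0182) and 1.86 ± 0.26 with MMS (edgeR adjusted p = 0.00756). Reads of its near copy MAP1LC3B2 came to 11.8% to 16.1% of its own in every library. Reads aligned to several places were left out, so reads that fit both copies may be missing from both. GABARAPL1 had 90.7 CPM in U2OS and 33.6 CPM in MDA-MB231 with doxorubicin, 189.8 and 84.1 CPM with etoposide, 305 and 37.2 CPM with MMS and 82.8 and 27.1 CPM with paclitaxel, against 85.2 CPM in U2OS DMSO and 19.3 and 14.9 CPM in the MDA-MB231 DMSO replicates. The MMS library was the highest in U2OS and the etoposide library in MDA-MB231. GABARAPL1 rose by 1.77 ± 0.24 with MMS (edgeR adjusted p = 0.00712) and 1.52 ± 0.25 with etoposide (edgeR adjusted p = 0.00905), and stood at 0.31 ± 0.25 with doxorubicin (edgeR adjusted p = 0.349). GABARAPL2 rose by 0.77 ± 0.14 with doxorubicin and 0.65 ± 0.14 with etoposide and was at 0.06 ± 0.14 with MMS. GABARAP rose by 0.55 ± 0.14 with doxorubicin and with no other drug, a call lost in 5 of 19 alternative settings, and MAP1LC3A, at 12 reads or more per library, passed in none.

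SQSTM1, the p62 cargo receptor that carries ubiquitin-tagged cargo to ATG8 proteins, rose with MMS and etoposide. SQSTM1 had 537 CPM in U2OS and 964 CPM in MDA-MB231 with doxorubicin, 908 and 1974 CPM with etoposide, 1400.4 and 1361 CPM with MMS and 453 and 708 CPM with paclitaxel, against 436 CPM in U2OS DMSO and 588 and 572 CPM in the MDA-MB231 DMSO replicates. MMS gave the highest library in U2OS and etoposide the highest in MDA-MB231. SQSTM1 rose by 1.58 ± 0.18 with MMS (edgeR adjusted p = 0.0053) and 1.32 ± 0.20 with etoposide (edgeR adjusted p = 0.00649), and was at 0.42 ± 0.19 with doxorubicin (edgeR adjusted p = 0.115). The other receptor genes, NBR1 and OPTN, passed with no drug, and OPTN came nearest with 0.51 ± 0.18 after doxorubicin (edgeR adjusted p = 0.0514).

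**Figure D3:**
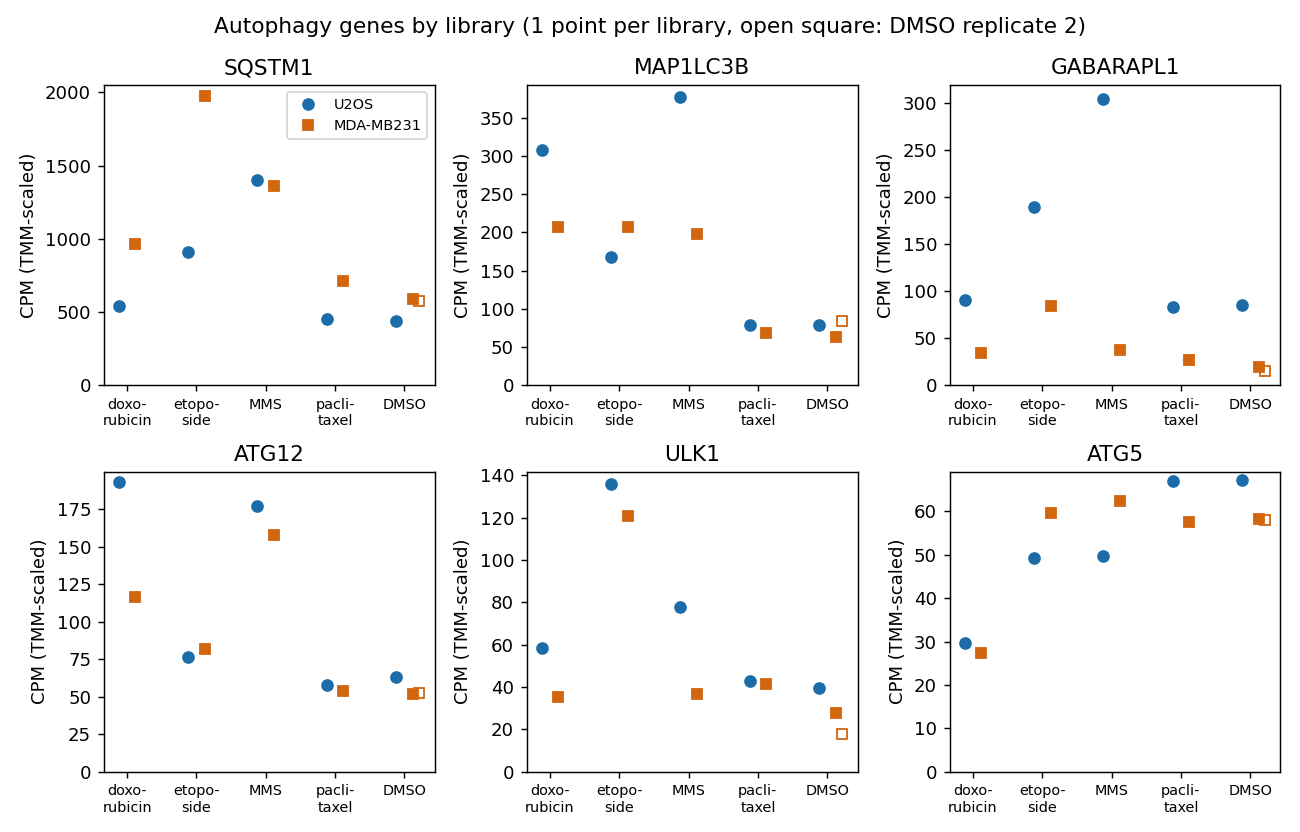
Level in CPM (y axis, from 0) of 6 autophagy genes in each of the 11 libraries (x axis, treatment; circles U2OS, squares MDA-MB231, open square MDA-MB231 DMSO replicate 2). SQSTM1 and GABARAPL1 are highest with MMS in U2OS and with etoposide in MDA-MB231, and ATG5 is lowest with doxorubicin in both lines.

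Of the MiT/TFE transcription factor genes, none passed with doxorubicin, the drug after which all 12 lysosome members rose. TFEB was a low gene throughout, with 7.62 CPM in U2OS and 7.86 CPM in MDA-MB231 with doxorubicin, 3.92 and 4.54 CPM with etoposide, 5.38 and 4.30 CPM with MMS and 7.52 and 6.13 CPM with paclitaxel, against 7.99 CPM in U2OS DMSO and 5.19 and 2.69 CPM in the MDA-MB231 DMSO replicates. TFEB stood below its DMSO level in every U2OS drug library, while in MDA-MB231 the drug and DMSO values overlapped, and it passed with no drug. TFE3 rose by 0.77 ± 0.16 with MMS (edgeR adjusted p = 0.0219), with -0.25 ± 0.16 after doxorubicin and -0.44 ± 0.16 after etoposide. MITF, known as the melanocyte regulator, fell with MMS by 1.32 ± 0.32 on the log2 scale (edgeR adjusted p = 0.0339). MITF had 45.2 CPM in U2OS and 51.1 CPM in MDA-MB231 with doxorubicin, 17.8 and 45.4 CPM with etoposide, 11.1 and 45.3 CPM with MMS and 35.3 and 48.7 CPM with paclitaxel, against 36.9 CPM in U2OS DMSO and 63.3 and 78.6 CPM in the MDA-MB231 DMSO replicates. MMS was the lowest library in both lines, and in MDA-MB231 the etoposide library stood level with it. The MMS calls of TFE3 and MITF were both lost without MDA-MB231 DMSO replicate 1, without the U2OS DMSO library and without the U2OS MMS library. Activity of these factors is set largely on the protein, which RNA levels do not show.

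The lysosome members rose together with doxorubicin, while with MMS their share of calls lay near that of all genes. With doxorubicin 3 of 3 membrane genes, 3 of 3 V-ATPase genes and 6 of 6 hydrolase genes rose, with a median of 1.22 over the 12. Of all genes 21.9% rose. The ratios within a line were above 0 for 12 of 12 in U2OS (0.83 to 1.97) and in MDA-MB231 (0.34 to 1.62). With etoposide 4 of 12 rose and none fell (median 0.36), which is 33.3% called beside 17.2% of all genes. With MMS 1 of 12 rose and none fell (median -0.18), which is 8.33% called beside 10.4% of all genes. For doxorubicin 11 or 12 of these calls were kept whichever library was left out, the exception being that of ATP6V1H, which was also lost under total-count scaling. Without the block for line and title form 5 of the 12 calls were kept, and 12% of all genes were called in place of 42.5%.

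Promoters of the lysosome members LAMP1, MCOLN1, CTSD and NEU1 are shown because these genes moved together with doxorubicin. Those of MAP1LC3B and SQSTM1 are set beside them because both genes rose with MMS, with which none of these 4 passed. MAP1LC3B rose with doxorubicin too. The windows are the 250 bases before 1 RefSeq start site per gene, on the strand of the gene, in GRCh38.p14. Other start sites of the same gene were not searched, so a window need not be that of the most used transcript. LAMP1 lies at chr13:113296989-113297238 on the plus strand, MCOLN1 at chr19:7522374-7522623 (plus), CTSD at chr11:1763928-1764177 (minus), NEU1 at chr6:31862822-31863071 (minus), MAP1LC3B at chr16:87392086-87392335 (plus) and SQSTM1 at chr5:179806143-179806392 (plus). Capitals mark TCACGTG, the core of the element bound by TFEB and its relatives, and TGACNNNGC, a form of the antioxidant response element, on either strand. Where these overlap they form 1 stretch of capitals. All 4 lysosome windows shown hold TCACGTG, while the matched window of CTSL1, which is not shown, does not.
LAMP1: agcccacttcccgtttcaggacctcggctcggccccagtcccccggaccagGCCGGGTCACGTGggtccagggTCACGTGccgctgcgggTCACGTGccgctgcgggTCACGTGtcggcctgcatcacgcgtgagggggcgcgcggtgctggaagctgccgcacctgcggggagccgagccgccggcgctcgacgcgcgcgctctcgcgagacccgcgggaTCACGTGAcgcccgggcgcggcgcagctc
MCOLN1: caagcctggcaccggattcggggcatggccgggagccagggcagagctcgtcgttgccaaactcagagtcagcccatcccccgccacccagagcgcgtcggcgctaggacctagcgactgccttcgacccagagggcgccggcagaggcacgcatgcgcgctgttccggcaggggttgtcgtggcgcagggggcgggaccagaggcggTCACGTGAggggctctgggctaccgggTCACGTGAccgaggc
CTSD: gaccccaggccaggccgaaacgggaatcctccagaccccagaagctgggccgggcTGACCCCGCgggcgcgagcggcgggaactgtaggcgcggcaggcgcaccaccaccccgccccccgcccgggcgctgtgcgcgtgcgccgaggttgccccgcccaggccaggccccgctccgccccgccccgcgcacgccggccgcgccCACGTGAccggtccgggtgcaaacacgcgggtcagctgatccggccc
NEU1: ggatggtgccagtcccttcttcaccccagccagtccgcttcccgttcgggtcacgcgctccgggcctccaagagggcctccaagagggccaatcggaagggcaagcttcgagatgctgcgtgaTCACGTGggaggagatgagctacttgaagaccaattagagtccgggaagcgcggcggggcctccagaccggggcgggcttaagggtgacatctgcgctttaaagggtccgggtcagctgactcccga
MAP1LC3B: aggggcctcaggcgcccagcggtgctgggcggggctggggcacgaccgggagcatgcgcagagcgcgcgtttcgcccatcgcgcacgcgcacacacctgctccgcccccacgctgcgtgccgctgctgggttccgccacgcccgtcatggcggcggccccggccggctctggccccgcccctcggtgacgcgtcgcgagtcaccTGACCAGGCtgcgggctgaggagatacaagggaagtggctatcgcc
SQSTM1: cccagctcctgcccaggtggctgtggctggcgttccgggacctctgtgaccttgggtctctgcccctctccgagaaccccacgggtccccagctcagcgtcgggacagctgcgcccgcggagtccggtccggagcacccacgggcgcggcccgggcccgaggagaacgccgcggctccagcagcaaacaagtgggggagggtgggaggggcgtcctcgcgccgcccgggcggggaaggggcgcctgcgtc

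TCACGTG, searched on both strands, was in 3.38% of the 27305 promoter windows of all genes. It was in 7 of the 34 member promoters matched in the table, and in 6 of the 7 matched among lysosome members (LAMP1, MCOLN1, ATP6V0D1, CTSA, CTSD and NEU1, without CTSL1). The only other member with it was ATG3, which fell with doxorubicin. TCACGTG was in 6 of the 15 matched members that rose with doxorubicin, which are the 6 lysosome members named. It was in 3 of 11 that rose with etoposide and in none of the 7 that rose with MMS. The shorter CACGTG, which lies within TCACGTG, was in 6.49% of all windows and in the same number of members, 7. TGACNNNGC was in 11.03% of all windows and in 6 members, of which 5 were lysosome members (LAMP1, ATP6V0D1, CTSA, CTSD and CTSL1) and the other was MAP1LC3B. It was in 2 of the 7 members that rose with MMS, CTSL1 and MAP1LC3B, in 6 of 15 that rose with doxorubicin and in 2 of 11 that rose with etoposide. TGATGNAA, the letters of the amino acid response element, was in 3.19% of all windows and in 0 members. These are matches of letters within 250 bases, not binding sites.

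Of the lysosomal membrane genes, MCOLN1, the calcium channel of the lysosome, had 79.1 CPM in U2OS and 147 CPM in MDA-MB231 with doxorubicin, 33.3 and 95.1 CPM with etoposide, 17.0 and 44.3 CPM with MMS and 23.7 and 67.2 CPM with paclitaxel, against 19.9 CPM in U2OS DMSO and 61.2 and 47.9 CPM in the MDA-MB231 DMSO replicates. Doxorubicin and then etoposide gave its highest libraries in each line. MCOLN1 rose by 1.67 ± 0.20 with doxorubicin (edgeR adjusted p = 0.000509) and by 0.72 ± 0.20 with etoposide (edgeR adjusted p = 0.0396), a call lost in 10 of 19 alternative settings. LAMP1, the abundant glycoprotein that lines the lysosome, had 1189 CPM in U2OS and 561 CPM in MDA-MB231 with doxorubicin, 528 and 375 CPM with etoposide, 408 and 308 CPM with MMS and 442 and 277 CPM with paclitaxel, against 455 CPM in U2OS DMSO and 269.8 and 311 CPM in the MDA-MB231 DMSO replicates. Only the doxorubicin libraries stood well clear of their line, and LAMP1 rose by 1.25 ± 0.15 with that drug (edgeR adjusted p = 0.000551). LAMP2, needed for fusion with autophagosomes, rose by 0.86 ± 0.17 with doxorubicin. The V-ATPase genes ATP6V0D1 and ATP6V1A rose by 1.08 ± 0.13 and 0.98 ± 0.14 with doxorubicin and by 0.78 ± 0.13 and 0.85 ± 0.14 with etoposide. The third, ATP6V1H, rose with doxorubicin by 0.58 ± 0.16. With MMS these membrane and V-ATPase genes ran from -0.40 (ATP6V1A) to -0.06 (LAMP2), and none passed.

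Among the hydrolases, NEU1, the lysosomal sialidase, was the one that rose strongly with both topoisomerase II poisons. NEU1 had 232 CPM in U2OS and 424 CPM in MDA-MB231 with doxorubicin, 254 and 450.1 CPM with etoposide, 97.3 and 95.8 CPM with MMS and 81.3 and 162 CPM with paclitaxel, against 73.5 CPM in U2OS DMSO and 138 and 105 CPM in the MDA-MB231 DMSO replicates. It rose by 1.56 ± 0.16 with doxorubicin (edgeR adjusted p = 0.000275) and 1.67 ± 0.16 with etoposide (edgeR adjusted p = 0.00274), and was at 0.16 ± 0.15 with MMS. Both poisons lay above every other library of their line. The cysteine protease gene CTSB had 5077 CPM in U2OS and 908 CPM in MDA-MB231 with doxorubicin, 1571 and 468 CPM with etoposide, 600.1 and 305 CPM with MMS and 1917 and 470.3 CPM with paclitaxel, against 1628 CPM in U2OS DMSO and 405 and 331 CPM in the MDA-MB231 DMSO replicates. CTSB rose by 1.59 ± 0.27 with doxorubicin (edgeR adjusted p = 0.00212). With MMS its value was -0.85 ± 0.29 and did not pass (edgeR adjusted p = 0.0974). The ratio with MMS was -1.44 (95% interval -1.47 to -1.41) in U2OS and -0.12 (-0.17 to -0.07) in MDA-MB231, intervals that did not overlap but cover counting error only.

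CTSD, an aspartic protease, had 496 CPM in U2OS and 1408 CPM in MDA-MB231 with doxorubicin, 251 and 729.6 CPM with etoposide, 172 and 475 CPM with MMS and 221 and 994 CPM with paclitaxel, against 201 CPM in U2OS DMSO and 716 and 641 CPM in the MDA-MB231 DMSO replicates. It was highest with doxorubicin and lowest with MMS in both lines, and passed for doxorubicin (1.12 ± 0.17, edgeR adjusted p = 0.00123) and not for MMS (-0.34 ± 0.17, edgeR adjusted p = 0.221). CTSA, which also protects NEU1 in a shared complex, rose by 1.31 ± 0.17 with doxorubicin, and the ganglioside-degrading HEXA by 1.19 ± 0.15. CTSL1 (now CTSL), a cysteine protease, rose by 1.31 ± 0.17 with doxorubicin and was the 1 lysosome member called with MMS, at 0.62 ± 0.16 (edgeR adjusted p = 0.0459). CTSL1 had 166 CPM in U2OS and 107.6 CPM in MDA-MB231 with MMS, against 102 CPM in U2OS DMSO and 117 and 69.5 CPM in the MDA-MB231 DMSO replicates 1 and 2. In MDA-MB231 the MMS library thus lay between the DMSO libraries, with a ratio of 0.63 over replicate 2, which shares its title form, and -0.12 over replicate 1. The MMS call was lost in 12 of 19 alternative settings.

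**Figure D4:**
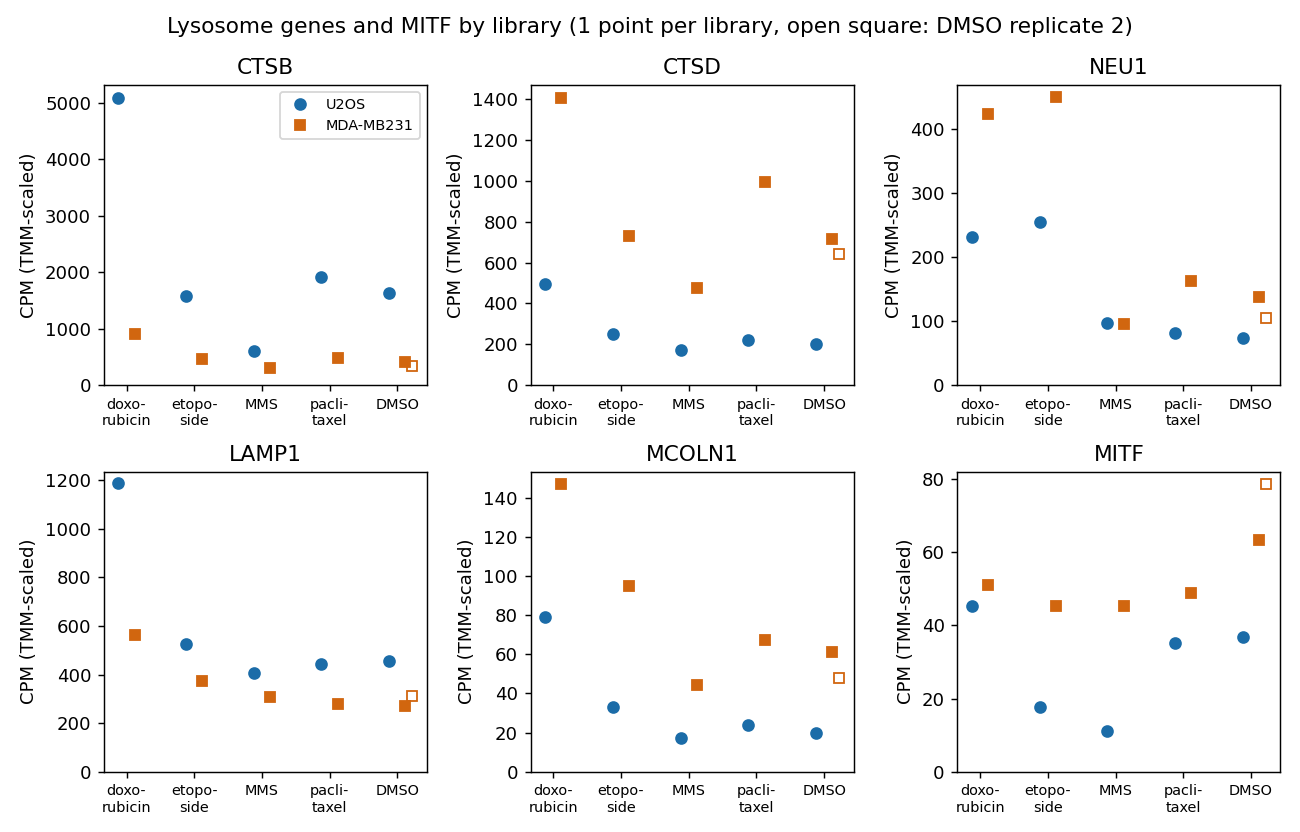
Level in CPM (y axis, from 0) of 5 lysosome genes and MITF in each of the 11 libraries (x axis, treatment; circles U2OS, squares MDA-MB231, open square MDA-MB231 DMSO replicate 2). CTSB, CTSD, LAMP1 and MCOLN1 are highest with doxorubicin in both lines, NEU1 is high with doxorubicin and etoposide, and MITF is lowest with MMS.

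Further genes of these pathways were taken from lists made by function, whose counts are to be read against the 42.5%, 17.2% and 10.4% of all genes called with doxorubicin, etoposide and MMS. Of 46 further lysosome genes 37 rose and 0 fell with doxorubicin (median 1.11), 8 rose and 1 fell with etoposide (0.43) and 2 rose and 3 fell with MMS (-0.19). The doxorubicin values were highest for the protease gene CTSK (2.93 ± 0.46) and the fucosidase gene FUCA1 (2.03 ± 0.20). CTSK was low, at 6.89 CPM in U2OS and 6.69 CPM in MDA-MB231 with doxorubicin, against 0.461 CPM in U2OS DMSO and 1.34 and 0.813 CPM in the MDA-MB231 DMSO replicates. After etoposide the protease gene LGMN (1.63 ± 0.20) and the sphingomyelinase gene SMPD1 (1.52 ± 0.23) rose and CTSC, another protease gene, fell by 1.35 ± 0.29 on the log2 scale. Of 13 further V-ATPase subunits 10 rose and 1 fell with doxorubicin, 5 rose and 0 fell with etoposide, and 0 passed with MMS. ATP6V1E1 (1.32 ± 0.17) was the highest after doxorubicin and ATP6V0A2 (-0.78 ± 0.23) the one that fell.

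The 34 further autophagy genes moved in both directions. With doxorubicin 5 rose and 12 fell (median -0.21), which is 50% of the list beside 42.5% of all genes, and the share that rose was 14.7% beside 21.9%. Those that fell included the tethering factor gene EPG5 (-1.64 ± 0.32), the SQSTM1-binding adaptor gene KEAP1 (-1.61 ± 0.22) and the ATG8 protease gene ATG4C (-1.14 ± 0.29), while the PI3P-binding gene WDR45 (1.09 ± 0.20) and RAB7A (0.86 ± 0.14), the GTPase of late endosomes, rose. With etoposide 8 rose and 2 fell (29.4% of the list), led by TP53INP1 (2.46 ± 0.25), a p53 target that binds ATG8 proteins. With MMS 4 rose and 1 fell (14.7%), led by TP53INP1 (1.07 ± 0.24) and NRBF2 (1.04 ± 0.21), a subunit of the PI3-kinase complex. Of 28 genes that control mTORC1, the nutrient-sensing kinase at the lysosome, 7 rose and 3 fell with doxorubicin (35.7%, below the 42.5% of all genes), 7 rose and 3 fell with etoposide (35.7% beside 17.2%) and 2 rose and 2 fell with MMS (14.3%, near 10.4%). The sestrin gene SESN2, an inhibitor of this kinase, rose by 3.22 ± 0.29 with MMS (edgeR adjusted p = 0.00184) and 1.42 ± 0.30 with etoposide. RPTOR, the scaffold subunit of mTORC1, fell by 1.86 ± 0.17 on the log2 scale with doxorubicin and by 0.79 ± 0.16 with MMS.

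The direct comparison of MMS with the other drugs asks where an alkylating agent differs from classical chemotherapeutics. MMS libraries differed from doxorubicin libraries at 24 members, with 6 higher and 18 lower, where 20.4% of all genes were higher and 22.3% lower (42.6% in either direction). All 12 lysosome members were lower with MMS, from -0.67 (ATP6V1H) to -2.44 (CTSB), with a median of -1.36. GABARAPL1 (1.46 ± 0.29), PIK3C3 (1.27 ± 0.24), SQSTM1 (1.17 ± 0.22), TFE3 (1.02 ± 0.19), ATG3 (0.98 ± 0.23) and ATG5 (0.92 ± 0.23) were higher with MMS. MAP1LC3B and ATG12, which rose over DMSO with both drugs, differed by 0.16 ± 0.30 and 0.12 ± 0.22 without passing. Without the U2OS MMS library 11 of the 24 calls were kept, 9 of them lysosome members. The share of all genes called in that fit is not given. Under total-count scaling the members' split was 9 higher and 14 lower, and the split of all genes turned to 3965 higher and 2449 lower in place of 3235 and 3536.

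Against etoposide, MMS libraries differed at 10 members, with 2 higher and 8 lower (4.73% and 4.33% of all genes, 9.06% in either direction). ATG12 (1.05 ± 0.23) and TFE3 (1.21 ± 0.19) were higher with MMS, and NEU1 (-1.51 ± 0.18), ATP6V1A (-1.24 ± 0.17), ATP6V0D1 (-0.98 ± 0.16), MCOLN1 (-0.96 ± 0.24), ATG2A (-0.95 ± 0.19), CTSA (-0.93 ± 0.20), ULK1 (-0.91 ± 0.23) and WIPI2 (-0.73 ± 0.17) lower. SQSTM1 (0.26 ± 0.22), GABARAPL1 (0.25 ± 0.29) and MAP1LC3B (0.58 ± 0.31) did not pass. Under total-count scaling 2 members were higher and 12 lower, and the split of all genes turned to 558 higher and 1004 lower in place of 752 and 688. This count was 0 without the U2OS MMS library, 3 without the U2OS etoposide library, 4 without MDA-MB231 DMSO replicate 1, 5 without replicate 2, the MDA-MB231 MMS or the MDA-MB231 etoposide library, and 6 without U2OS DMSO. Against paclitaxel, 4 members were higher with MMS and none lower (3.41% and 3.85% of all genes, 7.26% in either direction): MAP1LC3B (1.96 ± 0.31), GABARAPL1 (1.68 ± 0.29), ATG12 (1.56 ± 0.23) and SQSTM1 (1.51 ± 0.22). That count was 0 without the U2OS MMS library or either paclitaxel library, 7 without MDA-MB231 DMSO replicate 2 or the MDA-MB231 MMS library, and 8 without either doxorubicin library. The counts from leaving out libraries, against etoposide and against paclitaxel, have no share of all genes beside them.

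Whether the mean response to the drugs differed between the lines was tested with a further term, and 0 members and 0 of the 15888 genes passed in edgeR (0% called). The term averages over the 4 drugs. With 1 library per line and drug, a difference between the lines with a single drug was not tested. At an unadjusted p under 0.05 there were 204 genes and 0 members, and DESeq2 called 2 genes and 0 members. The lines differed in the level of 29 members, with 13 higher and 16 lower in U2OS than in MDA-MB231, where 31.9% of all genes were higher and 26.5% lower (58.5% in either direction). This contrast takes the MDA-MB231 level from the libraries with the title form of DMSO replicate 1. The level of DMSO replicate 2 and the MDA-MB231 MMS library is a separate block outside it. CTSB (1.98 ± 0.21), ATG10 (1.71 ± 0.23), GABARAPL1 (1.63 ± 0.19) and HEXA (1.56 ± 0.11) were highest in U2OS relative to MDA-MB231. MAP1LC3A (-2.63 ± 0.28), CTSD (-1.75 ± 0.13), MCOLN1 (-1.40 ± 0.14) and OPTN (-1.24 ± 0.13) were lowest. The MAP1LC3A value depends on the title form, with 3.74 CPM in MDA-MB231 DMSO replicate 1. It had 1.19 CPM in DMSO replicate 2 and 1.16 CPM in the MDA-MB231 MMS library, against 0.516 to 1.09 CPM in U2OS. Over 5 U2OS and 6 MDA-MB231 libraries the CPM of 7 members did not overlap: ATG10, GABARAPL2 and HEXA were above MDA-MB231 in every U2OS library, and MAP1LC3A, NBR1, OPTN and MITF below it. The share of all genes without overlap was not computed, so this count has no background. Some gaps were narrow. The highest U2OS and lowest MDA-MB231 values were 45.2 and 45.3 CPM for MITF, 1.09 and 1.16 CPM for MAP1LC3A and 174 and 176 CPM for NBR1. HEXA ranged over 195 to 553 CPM in U2OS and 57.1 to 153 CPM in MDA-MB231.

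**Figure D5:**
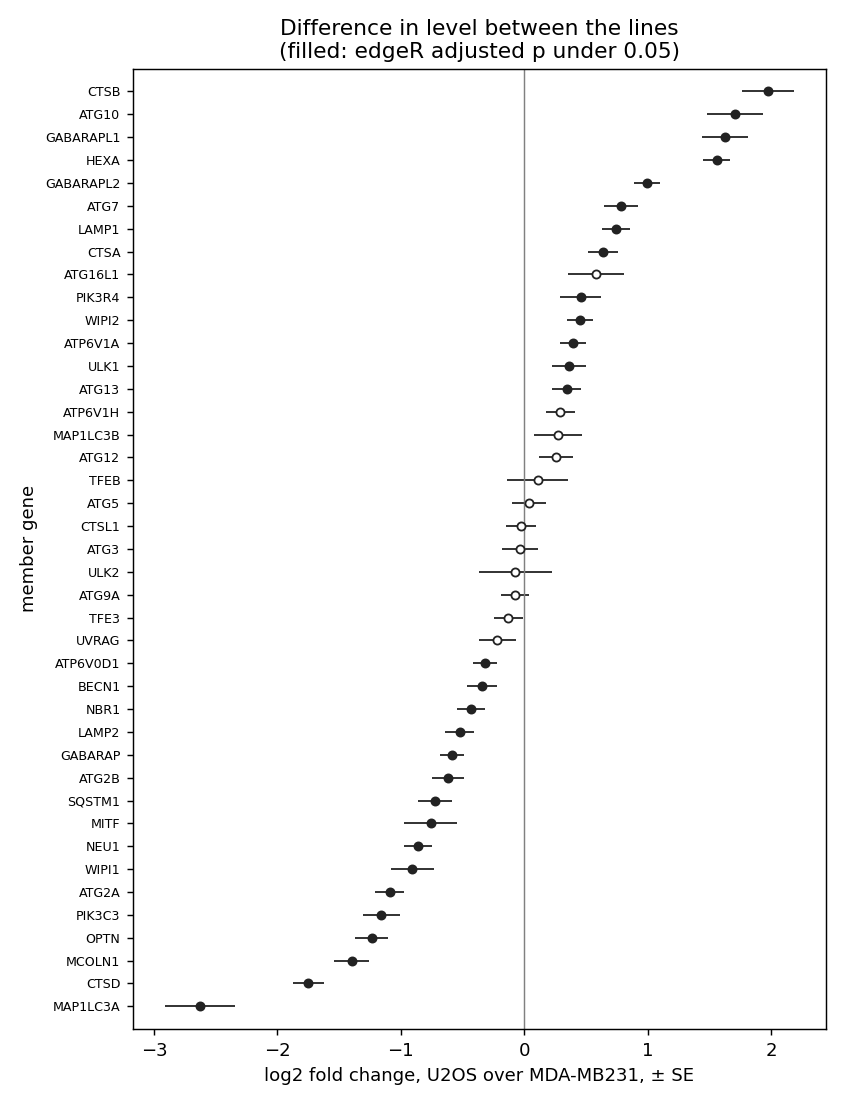
Log2 fold change in level, U2OS over MDA-MB231 (x axis, points, with bars of 1 SE), of the 41 members (rows, ordered by value). The MDA-MB231 level is that of libraries with the title form of DMSO replicate 1. Filled points passed an edgeR adjusted p under 0.05, which 13 members did above 0 and 16 below, from MAP1LC3A at -2.63 to CTSB at 1.98.

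Levels can be compared between genes only per length, here CPM per kb of merged exons. On that scale the same genes stood near the top in each DMSO library, in a different order. CTSB was first in U2OS DMSO with 391 CPM per kb, followed by LAMP1 (169) and SQSTM1 (126). CTSD was first in MDA-MB231 DMSO with 337 and 302 CPM per kb in replicates 1 and 2, followed by SQSTM1 (169 and 165) and LAMP1 (99.97 and 115). TFEB and ULK2 were among the lowest 3 in each DMSO library, with TFEB at 1.79 CPM per kb in U2OS DMSO and 1.16 and 0.602 CPM per kb in the MDA-MB231 DMSO replicates.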

How the data were processed

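The authors deposited, for each of the 11 libraries, raw read counts under gene symbols. The submitters' processing notes name CASAVA 1.8.2, TopHat2 2.0.8b, HTSeq and the builds hg19 and mm9. Whether counting used strand is not given in the sources used here. Overlapping opposite-strand genes (as for BECN1, WIPI1, ATG7, ATG12, OPTN and CTSA) therefore cannot be told apart. Reads aligned to several places (28.4% to 37.5%), outside genes (7.16% to 9.7%) or to more than 1 gene (1.03% to 1.19%) stayed out of library sizes and tests. No 2 libraries compared agreed within sampling noise.

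Counts were analysed in R 4.3.3 with edgeR 4.0.16 (TMM, filterByExpr, robust quasi-likelihood), in 1 fit of all 11 libraries with drug terms and a 3-level block (U2OS, and MDA-MB231 by title form), leaving 4 residual degrees of freedom. The line term was added to that model, with 3 left. SE was taken as the size of the log2 change over the root of its F statistic. Ratios within a line are of TMM-scaled CPM + 0.5, with exact Clopper-Pearson 95% intervals that cover counting error only. Alternatives were DESeq2 1.42.0, limma-voom (limma 3.58.1), DESeq2 size factors, no filter beyond 1 read, a block for line alone, no block, only the libraries compared and leaving out each library, and within a line other offsets, another minimum and the other MDA-MB231 DMSO library. Total-count scaling in the fits was chosen after seeing the data.

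Values in every library are given for the called members with the 4 highest and 4 lowest changes per drug (same sign in both lines, larger CPM at least 5) and for SQSTM1, MAP1LC3B, GABARAPL1, TFEB, LAMP1 and CTSD, and for each further list up to 3 of each end. CTSK and CTSL1 levels and the marker genes named were added after their values were seen. The members and lists were chosen with earlier results of these data known. Promoters and gene spans are from RefSeq (GRCh38.p14), where 34 members had a promoter, and merged exon lengths from GENCODE. The fits were tested on simulated counts.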

Additional observations from a re-analysis of the deposited data

Results flagged for a closer look

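Reads of 2 near copies of ATG8 family genes, which are not among the members, rose above their DMSO level. MAP1LC3B2 had 874 reads in U2OS and 651 in MDA-MB231 with doxorubicin, 989 and 1035 with etoposide and 1161 and 581 with MMS, against 244 in U2OS DMSO and 233 and 173 in the MDA-MB231 DMSO replicates. Its reads were 11.8% to 16.1% of those of MAP1LC3B in each of the 11 libraries. GABARAPL3 had 95 reads in U2OS and 45 in MDA-MB231 with etoposide, against 19 in U2OS DMSO and 5 and 8 in the MDA-MB231 DMSO replicates. Its reads were 1.02% to 3.35% of those of GABARAPL1. The read numbers of both copies are not scaled to library size, so they overstate or understate changes between libraries of unlike depth. U2OS etoposide held 31588683 counts assigned to genes, against 18959126 in U2OS DMSO. How far these reads come from the copies themselves was not tested.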

How the results depend on the processing

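No value fitted across both lines reversed. Within MDA-MB231 the CTSL1 ratio with MMS turned to -0.12 against the other DMSO library, in place of 0.63. Of the values that answer a comparison 168 stayed within the limits set and 35 moved, and of the single-gene values 1313 kept their call and 264 lost it. The cause was not tested. The block for line and title form sets each drug library against the DMSO library of its line and form. No paired analysis by replicate number was possible because the labels carry none. Without the block for line and title form, 9 members were called for doxorubicin, and edgeR called 12% of all genes in place of 42.5%. For MMS over doxorubicin 5 members were called, with 13% of all genes in place of 42.6%. For etoposide, MMS, MMS over etoposide and MMS over paclitaxel 0 members were called, and also 0% of all genes. With a block for line alone the MMS count was 5 (7.8% of all genes). With only the libraries compared it was 5 (4.41%), that of MMS over paclitaxel 9 (16.4%) and that of doxorubicin 17 (31.6%). For the line difference in level that setting left 1 U2OS library. DESeq2 gave 11 for MMS over paclitaxel, and called 18.3% of all genes for MMS, 17.6% for MMS over etoposide and 15.9% for MMS over paclitaxel, in place of 10.4%, 9.06% and 7.26%. Leaving out each library gave 19 to 27 members for doxorubicin, 2 to 15 for etoposide, 0 to 9 for MMS, 11 to 25 for MMS over doxorubicin, 0 to 12 for MMS over etoposide, 0 to 8 for MMS over paclitaxel, 0 to 0 for paclitaxel and for the line term (10 fits, since it could not be fitted without the U2OS DMSO library), and 22 to 27 for the line difference in level. No share of all genes is given beside the counts from leaving out libraries. Total-count scaling gave 18 members for etoposide (18.2% of all genes). Within MDA-MB231, against the other DMSO library, members at 2-fold or more were 17 in place of 11 for doxorubicin (32.9% in place of 27% of all genes), 3 in place of 5 for MMS (8.78% in place of 6.11%) and 3 in place of 0 for paclitaxel (3.65% in place of 0.471%). Depth limits ULK2, ATG10, MAP1LC3A and TFEB, which had under 100 reads in at least 1 library.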
